A study of Mus musculus with 6 samples.

Results

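The 200 most abundant noncoding transcripts of injured mouse hind limb muscle were described in 3 HDCKO mice, labelled as Hdc-/- (histidine decarboxylase knockout), and in 3 wild-type (WT) mice. They were selected on their level: rows marked as non-coding in the deposited FPKM table were ranked by their mean over the 6 libraries, leaving out H19, Meg3, Rian, Mirg and rows described as pseudogenes, and the 200 highest were taken. The table held 25572 genes, of which 7536 were marked as non-coding. FPKM is the number of fragments per kilobase of transcript, scaled to the number of mapped fragments, so levels can be compared between genes. All 6 mice had surgery for hind limb ischaemia, which cuts blood flow to the leg, and total RNA was taken from skeletal muscle 3 days later, with 1 library per mouse. Hdc makes histamine, and the knockout was labelled in the whole animal. The sources used here do not give strain, sex, age, or which muscle or leg was taken, and unoperated muscle was not analysed here. Where 3 values follow each other for a group, they are replicates 1, 2 and 3 in that order.

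Long noncoding RNAs are transcribed and mostly spliced like messenger RNAs but carry no long open reading frame. Some act in the nucleus as scaffolds, such as Neat1 in paraspeckles and Malat1 in nuclear speckles. Others serve as hosts whose introns or exons are cut into small nucleolar RNAs (snoRNAs), the guides of ribosomal RNA modification, or into microRNAs (miRNAs). Many lie antisense to a coding gene or beside it, and in muscle several lie among genes of the contractile apparatus.

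The promoters of snoRNA hosts are shown first, because these hosts were the largest group of members with a known role. Small Cajal body RNAs (scaRNAs) were counted with snoRNAs, and Snhg20 and 2900076A07Rik hold an annotated scaRNA but no annotated snoRNA. Of 24 hosts, 21 were lower in HDCKO muscle, where 42.6% of all genes tested were lower. Hosts of this kind are known for starting transcription at a C followed by pyrimidines, a feature shared with ribosomal protein genes. Each line gives bases from 40 before to 30 after an annotated start (RefSeq, GRCm38.p6). Capitals mark the longest run of at least 5 C or T that begins with a C within 5 bases of that start. The 10 hosts shown were picked for holding such a run; Snhg3 and Snhg18 hold one too, 9 hosts in the table, among them Snhg1, Snhg5, Zfas1 and Dancr, hold none, and Gas5 has a further annotated start without one.

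Gas5 (chr1:161035126-161035195, plus strand): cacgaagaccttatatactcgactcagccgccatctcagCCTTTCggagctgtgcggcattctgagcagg
Snhg12 (chr4:132308638-132308707, plus strand): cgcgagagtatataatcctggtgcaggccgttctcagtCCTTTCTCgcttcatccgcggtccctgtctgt
Snhg7 (chr2:26640215-26640284, minus strand): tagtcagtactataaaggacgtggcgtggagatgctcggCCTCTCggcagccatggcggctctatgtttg
Snhg8 (chr3:123508307-123508376, minus strand): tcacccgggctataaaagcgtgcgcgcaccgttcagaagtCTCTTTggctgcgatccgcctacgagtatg
1110038B12Rik (chr17:34952439-34952508, minus strand): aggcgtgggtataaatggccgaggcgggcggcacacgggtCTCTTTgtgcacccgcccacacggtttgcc
Rab26os (chr17:24528211-24528280, plus strand): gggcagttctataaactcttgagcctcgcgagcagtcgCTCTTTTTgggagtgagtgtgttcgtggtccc
2410006H16Rik (chr11:62602837-62602906, plus strand): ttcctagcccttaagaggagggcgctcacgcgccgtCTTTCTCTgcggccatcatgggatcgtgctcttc
Gm36220 (chr11:106500875-106500944, plus strand): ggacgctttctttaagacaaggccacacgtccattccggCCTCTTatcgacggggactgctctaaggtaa
AI506816 (chr5:23712638-23712707, minus strand): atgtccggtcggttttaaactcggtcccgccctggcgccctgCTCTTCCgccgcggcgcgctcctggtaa
2700038G22Rik (chr5:23850557-23850626, plus strand): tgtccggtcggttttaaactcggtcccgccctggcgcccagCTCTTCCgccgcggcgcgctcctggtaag

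Of the 200 members, 153 matched the RefSeq promoter table, among them 21 of the 24 snoRNA hosts. A C within 5 bases of an annotated start, followed by C or T to a run of at least 5 on the gene's strand, was found in 12 of these 21 hosts (57.1%). The share was 25.0% for the other members and 21.2% for all 27025 genes in the table. The letters TATAA, 40 to 15 bases before a start on the gene's strand, stood in 6 of the 21 hosts (28.6%), against 5.30% of the other members and 4.22% of all genes. Both patterns were set after the sequences had been read, and a match describes letters only. The windows of AI506816 and 2700038G22Rik are close copies (232 of 299 aligned promoter bases identical), and the labels do not state how shared reads were counted, which leaves the values of both genes uncertain.

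The second set of sequences is a choice from 36 mature miRNAs found for 11 host members. The seed (bases 2 to 8, which pairs with targets) is in capitals. No miRNA of Mir1a-1hg, the listed miRNA host that was higher in HDCKO, is among those shown. Mature miRNAs were not measured here. The lines show that miR-17-5p and miR-20a-5p share a seed, as do miR-19a-3p and miR-19b-3p, and miR-15a-5p and miR-16-5p (RefSeq, GRCm38.p6).

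miR-22-3p (host Mir22hg): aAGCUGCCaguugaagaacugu
miR-100-5p (host Mir100hg): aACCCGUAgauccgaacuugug
miR-125b-5p (host Mir100hg): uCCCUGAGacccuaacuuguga
miR-17-5p (host Mir17hg): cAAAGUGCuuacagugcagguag
miR-20a-5p (host Mir17hg): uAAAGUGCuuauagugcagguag
miR-18a-5p (host Mir17hg): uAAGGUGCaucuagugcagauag
miR-19a-3p (host Mir17hg): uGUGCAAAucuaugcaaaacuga
miR-19b-3p (host Mir17hg): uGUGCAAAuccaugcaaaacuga
miR-92a-3p (host Mir17hg): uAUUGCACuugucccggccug
miR-15a-5p (host Dleu2): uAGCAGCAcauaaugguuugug
miR-16-5p (host Dleu2): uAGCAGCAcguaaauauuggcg
miR-199a-3p (host Dnm3os): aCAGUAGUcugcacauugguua
miR-214-3p (host Dnm3os): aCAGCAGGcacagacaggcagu
miR-223-3p (host F630028O10Rik): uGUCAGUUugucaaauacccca

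Genotype, cell markers and the likeness of the libraries frame every value below. Hdc had 1.22, 2.46 and 2.52 FPKM in HDCKO and 7.49 to 8.17 in the WT libraries, so reads of the gene were lower in HDCKO but still present; histamine was not measured here. The summed FPKM of 10 muscle fibre markers was 39618 to 73199 in HDCKO and 327 to 1333 in WT, and that of 8 neutrophil markers was 32.5 to 69.7 in HDCKO and 2487 to 14479 in WT, with no marker at 0 in any library. Macrophage markers summed to 247, 724 and 1884 FPKM in HDCKO and to 2238 to 2494 in WT. Among them Adgre1, C1qa, Csf1r and Lyz2 overlapped between the groups, while Cd14, Cd68, Itgam and Mertk were lower in every HDCKO library. Markers of cell division summed to 2.61, 8.42 and 58.7 in HDCKO and to 92.5 to 123 in WT. The part of these shifts in the results on noncoding RNAs was not tested, and in bulk tissue fewer cells of a type and less RNA per cell cannot be told apart. Across the 200 members, log2 values correlated at 0.816 to 0.947 within HDCKO, 0.936 to 0.976 within WT and -0.14 to 0.395 between the groups; members are not independent replicates. HDCKO replicate 3 lay nearest to the WT mean for 55 of 67 higher and 61 of 72 lower members, and WT replicate 2 held the highest value for 36 of the 72 lower ones.

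The comparison of HDCKO with WT muscle asked how the most abundant noncoding RNAs differ after ischaemia between mice with and without a working Hdc gene. The largest increases in HDCKO were 2310065F04Rik, Uckl1os, Gm46757 and Nctc1, and the largest decreases were Mirt2, an inducible transcript, and F630028O10Rik, which lies over Mir223. Of 24 hosts of snoRNAs, 21 were lower and 0 higher, against 42.6% and 17.8% of all genes tested. The test was limma on log2(FPKM + 0.5) over the 13288 genes that averaged 0.5 FPKM or more, with an adjusted p under 0.05 as the threshold, and all 200 members passed this filter. Log2 changes are HDCKO minus WT on that scale, which damps changes near 0.

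Of the 200 members, 67 were higher in HDCKO (33.5%, against 17.8% of all genes tested) and 72 were lower (36.0%, against 42.6% of all genes). Groups did not overlap for 73 members higher (21.2% of all genes) and 77 lower (51.4% of all genes). The median log2 change was -0.05 over the members and -0.50 over all genes tested, so -0.50 is the level of a typical gene on the deposited values. Among 382 other noncoding genes tested, 103 were higher and 116 lower. These counts rest in part on how the members were found: 58 members would rank in the top 200 by the HDCKO mean but not by the WT mean, and 57 of these were higher, while 40 of the 47 that would rank there by the WT mean alone were lower. Of the 95 that would rank there by both means, 10 were higher and 32 lower. The split also moved with scaling, from 67 higher and 72 lower to 82 and 58 with median-of-ratios scaling, which brings the typical gene to the same level in every library. The share of all genes moved more, so the order of the lower shares turned. With that scaling 29.0% of members against 25.2% of all genes were lower, and without HDCKO replicate 2 it was 25.5% against 18.8%. The order also turned after quantile normalization (30.5% against 30.3%) and after rescaling without fibre markers (30.5% against 27.9%). It turned with no filter (29.5% against 21.1%) and without any single WT replicate (27.5% against 21.2% to 23.9%). The share of higher members stayed above that of all genes in each of these fits. It was 41.0% against 27.0% with median-of-ratios scaling and 29.0% against 13.4% without HDCKO replicate 2. A set of 101 members (57 higher, 44 lower) kept their call under every scaling and with any single library left out.

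**Figure D1:**
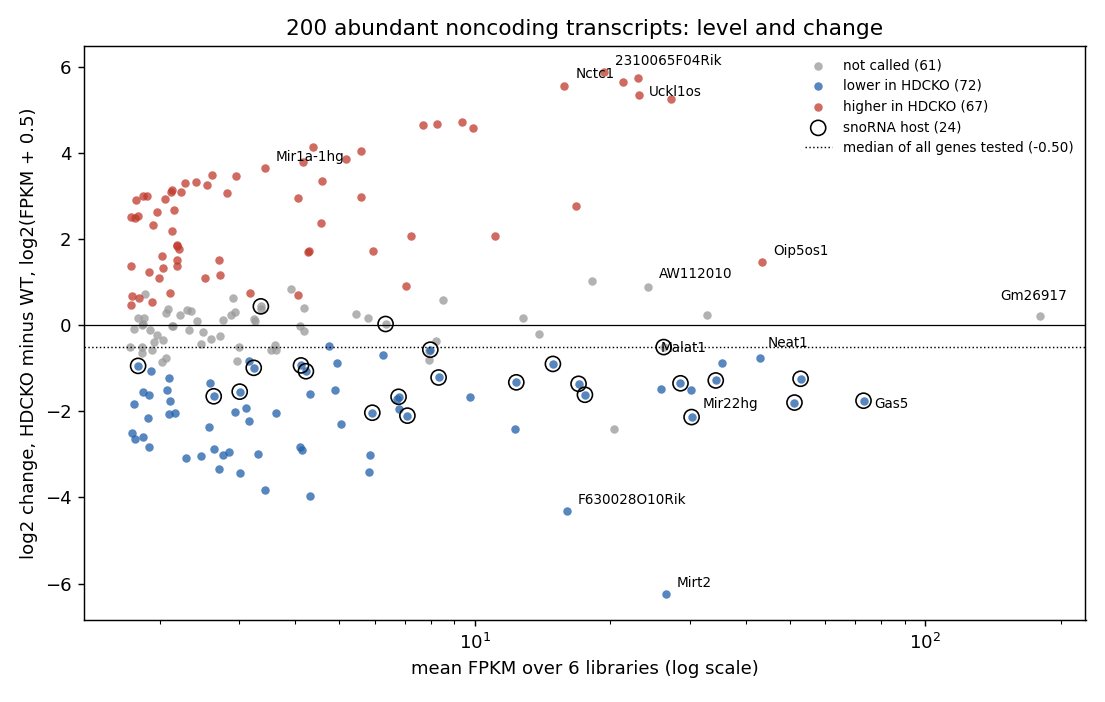
Log2 change (HDCKO minus WT, vertical axis) against mean FPKM over 6 libraries (horizontal axis, log scale) for the 200 members; red points are higher, blue lower and grey not called in HDCKO (limma adjusted p under 0.05), rings mark 24 snoRNA hosts and the dotted line the median of all genes tested (-0.50). The rings lie between -2.13 and 0.44, while the changes of all members run from -6.25 to 5.88.

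The level fell steeply with rank. The mean was 179.8 FPKM for the first member, 6.78 for rank 50 and 3.11 for rank 100, and 34 members were above 10 FPKM. Together the 200 made up 0.353 ± 0.0160% of all FPKM in HDCKO muscle and 0.405 ± 0.0196% in WT muscle (SD over 3 libraries a group; exact two-sided permutation p = 0.1, the smallest that 3 against 3 allows). That order turned when the libraries were rescaled without the 10 fibre markers, mitochondrial genes and small structural RNA genes. The difference was then 0.0729 percentage points in favour of HDCKO. Other fibre genes stayed in the total of that rescaling. By annotation (GENCODE M39, GRCm39), 180 of the 183 members that matched were long noncoding RNAs, with a median canonical transcript of 1034 bases and 3 exons.

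Gm26917, the most abundant member, did not separate the groups. Its level was 115, 214 and 247 FPKM in HDCKO and 119, 128 and 256 in WT. Each group held low and high libraries, and the log2 change was 0.21 (SE 0.41, adjusted p = 0.666), or -0.00 without HDCKO replicate 3. The gene did not match the annotation used here, so no position is given.

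Nuclear and regulatory RNAs of broad expression were not called in 1 direction on the deposited values. This list held Oip5os1, Neat1, Malat1, Norad and Firre. Of the 5, 1 was higher and 2 were lower, where 17.8% and 42.6% of all genes tested were, and 2 were not called. Under each of the 3 other scalings 3 of the 5 were higher and 0 lower, against 23.4% to 27.0% and 25.2% to 30.3% of all genes. Together the 5 held a like share of FPKM (0.0365 ± 0.00689% in HDCKO and 0.0376 ± 0.00174% in WT, n = 3 each, exact permutation p = 0.8).

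Oip5os1 (also called Cyrano, an RNA known to trigger decay of a miRNA) lies on chromosome 2, 119424396 to 119437983, plus strand, in GRCm39. Its level was 83.8, 58.6 and 51.1 FPKM in HDCKO and 22.5, 23.2 and 21.9 in WT. Every HDCKO library was above every WT library, and Oip5os1 rose by 1.46 (SE 0.21, adjusted p = 0.00321). Malat1 (chromosome 19, 5845717 to 5853602, minus strand) had 30.4, 24.8 and 20.2 FPKM in HDCKO and 41.4, 47.0 and 49.2 in WT, without overlap. It fell by 0.87 (adjusted p = 0.0112), which is below the median of all genes (-0.50); the call was lost under all 3 other scalings, with a change of -0.32 under median-of-ratios. Neat1, its neighbour on chromosome 19, had 46.3, 26.8 and 24.9 FPKM in HDCKO and 49.6, 60 and 50.8 in WT. HDCKO replicate 1 came close to the WT range, and the call (log2 change -0.75, adjusted p = 0.0454) was lost under every other scaling, with no filter, and in each fit that left out a single library other than HDCKO replicate 1. Norad, which binds Pumilio proteins and lies on chromosome 2, was 36.9, 32.0 and 37.4 FPKM in HDCKO and 30.6, 28.4 and 31.1 in WT (log2 change 0.23, adjusted p = 0.167). Firre, an X-linked RNA of nuclear organisation, had 4.62 to 4.96 FPKM in HDCKO and 3.02 to 4.06 in WT (0.39, adjusted p = 0.0633). Norad and Firre both passed as higher with median-of-ratios scaling (0.78 and 0.89) and quantile normalization. Both also passed after rescaling without fibre markers, mitochondrial and small structural RNA genes.

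snoRNA hosts were lower in HDCKO as a group. The list made by name (Snhg genes, Gas5, Zfas1, Dancr and Epb41l4aos) had 17 members, of which 15 were lower, 0 higher and 2 not called, with a median log2 change of -1.28. Taking in 7 further members with an annotated snoRNA or scaRNA gene inside, 21 of 24 hosts were lower and 0 higher. Their median was -1.31, against 42.6% lower and a median of -0.50 over all genes. Snhg20 and 2900076A07Rik, whose entries are scaRNAs only, were both not called. The share of summed FPKM taken by the 17 listed hosts was 0.0280%, 0.0362% and 0.0550% in HDCKO and 0.0977% to 0.119% in WT. Across the 24 hosts, 13 were lower and 0 higher without HDCKO replicate 2, where 18.8% of all genes were lower, and 14 were lower and 1 higher with median-of-ratios scaling, where 25.2% were. The medians of the hosts were then -1.28 and -0.77, and those of all genes -0.49 and -0.01. Summed ribosomal protein transcripts stood at 17999, 25456 and 34494 FPKM in HDCKO and at 43039 to 48191 in WT; their part in this result was not tested. Only 1 noncoding gene with deposited values had a name from the list of small structural RNAs, which takes in Snord and Snora genes. It was not among the 200 members, so nothing is reported of the snoRNAs themselves.

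Gas5, a host that accumulates in growth-arrested cells and whose span holds 10 annotated snoRNA entries, was the most abundant of them (NCBI gene 14455; chromosome 1, 160861793 to 160866118, plus strand). It had 22.8, 31.7 and 47.4 FPKM in HDCKO and 126, 90.0 and 120 in WT. The highest HDCKO library was well below the lowest WT library, and Gas5 fell by 1.75 (SE 0.30, adjusted p = 0.00550). Snhg1 (chromosome 19, 8700319 to 8703812, plus strand), with 8 annotated snoRNA entries inside, had 14.8, 20.5 and 36.3 FPKM in HDCKO and 84.5, 76.0 and 75.6 in WT. It fell by 1.80 (SE 0.32, adjusted p = 0.00665), and its groups did not overlap either. Zfas1 had 12.8, 18.9 and 29.6 FPKM in HDCKO and 42.9 to 57.3 in WT (-1.28, adjusted p = 0.0162); without HDCKO replicate 2 its adjusted p was 0.0583 and without WT replicate 1 it was 0.0572. In all of these hosts HDCKO replicate 3 was the HDCKO library closest to WT.

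Outside the list made by name, 6 of 7 hosts were lower, and 2900076A07Rik was not called. 1110038B12Rik, which holds Snord52, had 7.19, 8.39 and 20.0 FPKM in HDCKO and 44.3 to 51.6 in WT, and fell by 2.13 (adjusted p = 0.00630). 2410006H16Rik, which holds Snord49a, Snord49b and Snord65, had 17.1, 32.3 and 49.9 FPKM in HDCKO and 66.1 to 84.5 in WT (-1.24, adjusted p = 0.0320). Its exons overlap those of Lrrc75a on the opposite strand (log2 change -0.28, not called), and its own call was lost under the 3 other scalings, under no filter and without HDCKO replicate 2 or any WT replicate. Rab26os, which holds Snord60, fell by 2.03, Gm36220, which holds Snord104, by 1.33, and AI506816 by 1.66.

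The falls of the other named hosts ran from 0.57 for Epb41l4aos and 0.90 for Snhg6 to 1.65 for Dancr and 2.10 for Snhg15. Between them were Snhg18 (-1.21), Snhg3 (-1.35), Snhg12 (-1.36), Snhg17 (-1.54) and Snhg5 (-1.62). The hosts that did not pass were Snhg8, Snhg20 and 2900076A07Rik. Snhg8 had 18.1, 26.0 and 20.9 FPKM in HDCKO and 26.9 to 35.9 in WT (-0.51, adjusted p = 0.0575), and its change was 0.04 with median-of-ratios scaling. Snhg20 had 4.70 to 9.17 FPKM in HDCKO and 5.32 to 7.86 in WT (0.03, adjusted p = 0.935). 2900076A07Rik went the other way in level (3.40 to 4.40 FPKM in HDCKO, 2.56 to 3.07 in WT; 0.44, adjusted p = 0.0502).

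**Figure D2:**
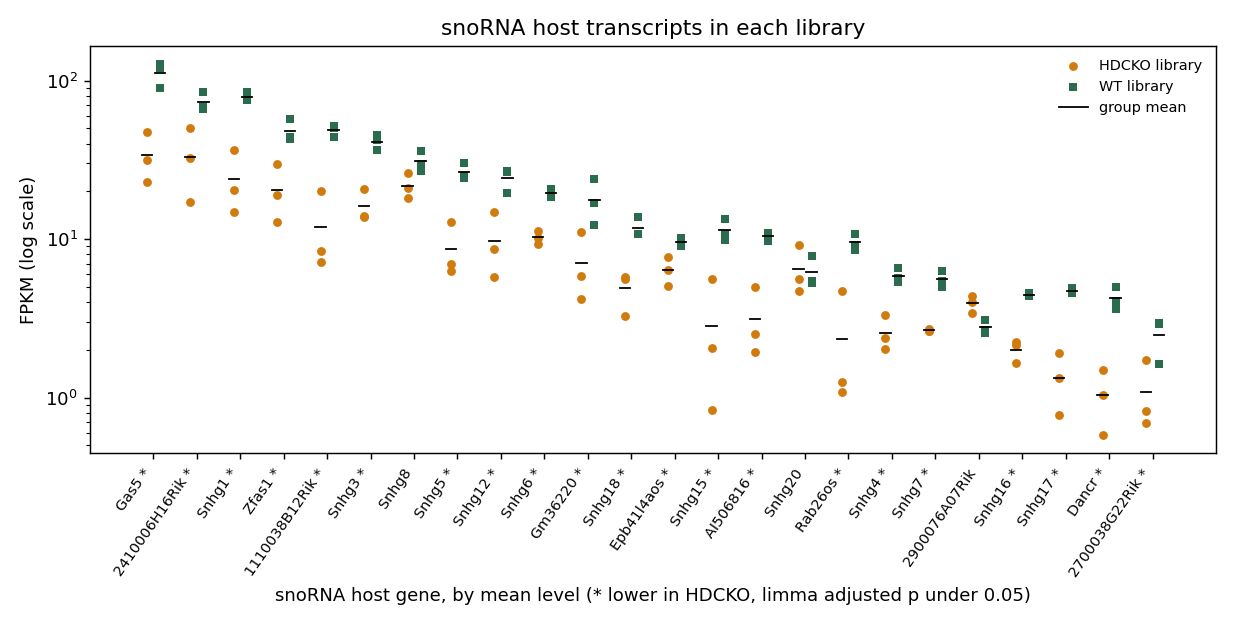
FPKM (log scale) of the 24 snoRNA hosts in each HDCKO library (circles) and WT library (squares), with group means as bars and hosts ordered by mean level. Gas5 runs from 22.8 to 47.4 in HDCKO and from 90.0 to 126 in WT, and 21 hosts carry a star for lower in HDCKO.

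miRNA hosts went both ways. The list held 7 members (17.8% of all genes were higher and 42.6% lower), of which 1 was higher (Mir1a-1hg), 4 were lower (Mir22hg, Mir100hg, Mir17hg and Dnm3os) and 2 were not called (Dleu2 and Carmn). Among all 13 members with an annotated miRNA gene inside, 2 were higher and 5 lower on the deposited values, and 5 and 5 under each of the 3 other scalings. Mir22hg, which carries Mir22 in an exon (chromosome 11, 75352365 to 75357502, plus strand), had 16.1, 15.5 and 14.8 FPKM in HDCKO and 42.3, 52.5 and 40.5 in WT. Its HDCKO libraries lay close together, well below WT, and it fell by 1.51 (SE 0.15, adjusted p = 0.000987). Mir100hg, which holds Mir100, Mirlet7a-2 and Mir125b-1 in introns, had 1.43, 0.861 and 1.10 FPKM in HDCKO and 5.80 to 6.49 in WT, and fell by 2.04 (adjusted p = 0.000605).

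Mir17hg, the host of the miR-17 to miR-92 cluster that promotes cell division, had 0.547, 1.46 and 1.94 FPKM in HDCKO and 3.60, 4.40 and 3.57 in WT. It fell by 1.34 (adjusted p = 0.0162), but not past the threshold without WT replicate 2 (adjusted p = 0.0570) or WT replicate 3 (0.0504). Dnm3os, which holds Mir199a-2 and Mir214 and is known from mesenchymal cells, had 0.312 to 0.778 FPKM in HDCKO and 2.33 to 3.74 in WT (-1.84, adjusted p = 0.00273). The summed FPKM of cell division markers and of fibroblast markers was lower in HDCKO too. For fibroblasts it was 1464 to 2167 in HDCKO and 2616 to 5036 in WT, but Lum, Col1a1 and Col1a2 overlapped between the groups. The part of these markers was not tested. Dleu2, host of Mir15a and Mir16-1, had 2.51 to 3.82 FPKM in HDCKO and 3.29 to 5.73 in WT (-0.46, adjusted p = 0.156). Carmn, a smooth muscle RNA, overlapped between the groups (-0.22, adjusted p = 0.465). With median-of-ratios scaling the changes of Dleu2 and Carmn were 0.03 and 0.23.

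Mir1a-1hg, which carries the muscle miRNAs Mir1a-1 and Mir133a-2 in introns, was nearly absent from WT libraries. It had 11.8, 5.94 and 2.75 FPKM in HDCKO and 0.0310, 0 and 0 in WT. One fragment in a gene of 1 kb is worth 0.0266 to 0.0339 FPKM at the estimated depths, so the WT values lie at the limit of detection. It rose by 3.64 (SE 0.46, adjusted p = 0.00233). F630028O10Rik, the transcript that RefSeq places over Mir223, a miRNA of neutrophils and other myeloid cells, showed the opposite pattern. It had 0.356, 0.818 and 2.18 FPKM in HDCKO and 23.8, 50.1 and 19.1 in WT, and fell by 4.32 (SE 0.52, adjusted p = 0.00195).

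The list of muscle RNAs held 5 members. Of these, 3 were higher (Atcayos, Nctc1 and Myhas) and 2 lower (Dubr and Mirt1), also under the 3 other scalings. Of all genes tested, 17.8% were higher and 42.6% lower, or 23.4% to 27.0% and 25.2% to 30.3% under those scalings. The 10 largest increases of all members were 2310065F04Rik (5.88), Uckl1os (5.74), Gm46757 (5.64), Nctc1 (5.56), Atcayos (5.35), 2310040G24Rik (5.24), A930016O22Rik (4.71), Gm15179 (4.67), Gm12224 (4.65) and 1700120C14Rik (4.57). The coding neighbours of these 10 include muscle genes such as Ckm and Des, and others such as Uckl1 and Aqr. HDCKO replicate 1 held the highest value of all 6 libraries for 48 of the 67 higher members, and it also had the highest fibre marker sum.

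2310065F04Rik lies on chromosome 11 (66999302 to 67011271, minus strand) next to the cluster of myosin heavy chain genes, with Myh3 as its nearest coding gene. It had 60.8, 39.6 and 15.8 FPKM in HDCKO and 0.0230, 0.208 and 0.0297 in WT. Its groups were far apart although the HDCKO libraries differed among themselves (SE 0.48, adjusted p = 0.000533). Myhas, antisense within the same cluster and overlapping exons of Myh1, had 6.45, 4.68 and 3.31 FPKM in HDCKO and 0.0355, 0 and 0 in WT (3.33, adjusted p = 0.000369). Because the authors' counting is not stated to use strand, reads of Myh1 (log2 change 8.18) and Myhas cannot be told apart where their exons overlap.

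Nctc1, a transcript of the mesodermal enhancer region beside H19 (chromosome 7, 142098346 to 142123675, minus strand), had 46.6, 27.9 and 20.1 FPKM in HDCKO and 0.283, 0.0896 and 0.0640 in WT. The lowest HDCKO library was far above the highest WT library (SE 0.33, adjusted p = 0.000210). Atcayos had 51.3, 41.9 and 43.7 FPKM in HDCKO and 1.77, 0.339 and 0.254 in WT (adjusted p = 0.000505). 2310040G24Rik, on chromosome 6, had the highest mean level of the higher members after Oip5os1, with 66.0, 46.8 and 47.8 FPKM in HDCKO and 1.45, 0.696 and 0.696 in WT (adjusted p = 0.000168). Uckl1os, with 60.6, 52.6 and 23.9 FPKM against 0.178 to 0.524, lies opposite Uckl1 (log2 change 0.41), with no overlap of exons. Gm46757 rested most on 1 library: it had 103 FPKM in HDCKO replicate 1, 10.4 and 14.8 in replicates 2 and 3, and 0, 0.0576 and 0 in WT (SE 0.82, adjusted p = 0.00355). Gm48584 was listed at 0 in all 3 WT libraries and had 6.85, 4.87 and 3.99 FPKM in HDCKO.

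Dubr, which promotes differentiation of myoblasts, the precursors of fibres, moved against the fibre transcripts. It had 2.03, 2.61 and 4.23 FPKM in HDCKO and 9.51, 11.6 and 10.4 in WT, without overlap, and fell by 1.71 (SE 0.25, adjusted p = 0.00366). Mirt1, named for its rise after myocardial infarction, had 0.0110, 0.0192 and 0.136 FPKM in HDCKO and 2.03, 7.47 and 1.36 in WT, and fell by 2.60 (adjusted p = 0.00992). Its neighbour 4833407H14Rik, on the opposite strand of chromosome 19 at an overlapping position, had 0 to 0.109 FPKM in HDCKO and 3.17, 7.77 and 2.67 in WT (-3.07, adjusted p = 0.00202). WT replicate 2 was the highest library for both.

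**Figure D3:**
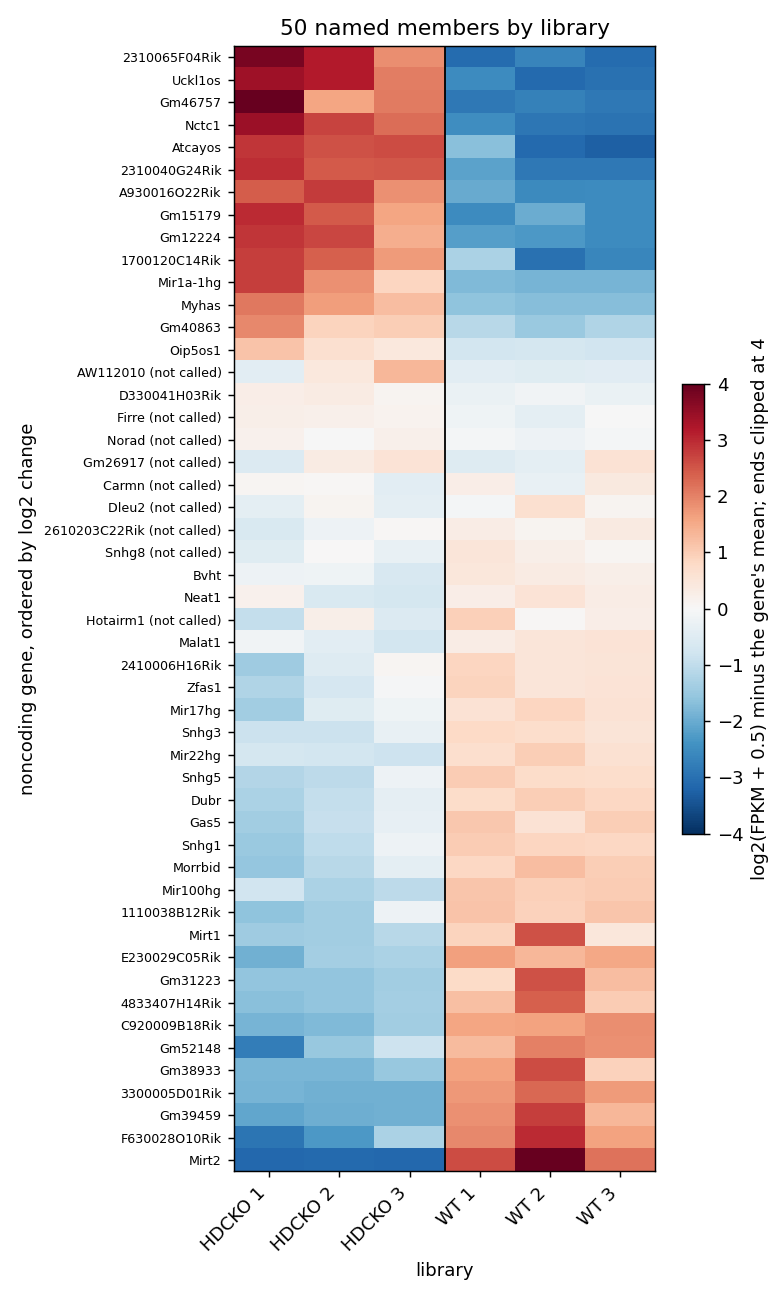
Log2(FPKM + 0.5) minus the gene's mean over 6 libraries (colour, clipped at 4) for 50 named members (rows, ordered by log2 change) in each library (columns). Rows at the top are red in the 3 HDCKO libraries and rows at the bottom red in the 3 WT libraries, with WT 2 the darkest for Mirt2 and HDCKO 3 paler than HDCKO 1 in most rows.

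The list of inducible and immune RNAs held 6 members, among them Bvht, which is described in the cardiac lineage. Of the 6, 4 were lower in HDCKO, Bvht included, and 0 higher (42.6% and 17.8% of all genes). Under each of the 3 other scalings 3 were lower, without Bvht, and 1 was higher. Mirt2, which is induced by inflammatory stimuli and dampens signalling through TRAF6, had the largest decrease of all members. It had 0.0299, 0.0349 and 0.0274 FPKM in HDCKO and 27.8, 111 and 20.1 in WT. The HDCKO values are near the worth of 1 fragment in a gene of 1 kb, WT replicate 2 was several-fold above the other WT libraries, and Mirt2 fell by 6.25 (SE 0.61, adjusted p = 0.000933). Morrbid, which represses Bcl2l11 and so extends the life of neutrophils and other myeloid cells, had 0.213, 0.468 and 1.08 FPKM in HDCKO and 3.20, 4.41 and 3.58 in WT (-2.03, adjusted p = 0.00419). Bcl2l11 itself, its nearest coding gene, fell by 1.85. Bvht had 3.67 to 5.30 FPKM in HDCKO and 7.27 to 8.54 in WT (-0.69, adjusted p = 0.0190). It was not called under the other scalings or without any 1 of the WT replicates.

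AW112010, an interferon-inducible transcript of immune cells, did not follow this pattern. It had 16.0, 28.9 and 53.9 FPKM in HDCKO and 16.0, 15.3 and 15.5 in WT. HDCKO replicate 1 (15.97 FPKM) lay just above the highest WT library (15.96), and the other HDCKO libraries lay further above. The log2 change of 0.89 did not pass (adjusted p = 0.104). AW112010 passed without HDCKO replicate 1 (1.32, adjusted p = 0.0147). It also passed as higher under all 3 other scalings and with sample weights, and over all alternatives its adjusted p ran from 0.000112 to 0.1997. Hotairm1, a myeloid RNA of the Hoxa cluster, had 1.15 to 3.22 FPKM in HDCKO and 2.77 to 5.69 in WT (-0.84, adjusted p = 0.0932).

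The other large decreases were in transcripts named only by clone: Gm39459 (-3.97), 3300005D01Rik (-3.83), Gm38933 (-3.43), Gm52148 (-3.41), C920009B18Rik (-3.35), Gm31223 (-3.03) and E230029C05Rik (-3.02). 3300005D01Rik had 0.0227, 0 and 0 FPKM in HDCKO and 5.84, 8.90 and 5.79 in WT. C920009B18Rik was also near 0 in HDCKO replicate 1. It had 0.00514, 0.0300 and 0.193 FPKM in HDCKO and 4.88, 5.03 and 6.12 in WT. In 15 of the 72 lower members, WT replicate 2 was more than 2 times each other WT library, as in Mirt2, Mirt1 and Gm32287 (3.02, 13.4 and 2.88 FPKM in WT), whose nearest coding gene is Cebpb. The summed neutrophil markers were highest in the same library, and their part was not tested.

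**Figure D4:**
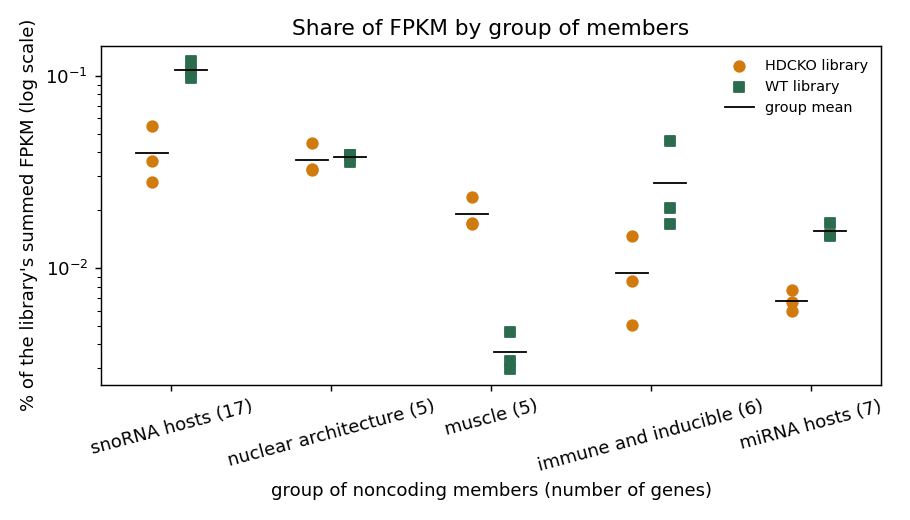
Share of the library's summed FPKM (%, log scale) held by 5 lists of members in each HDCKO library (circles) and WT library (squares), with group means as bars. The lists of snoRNA hosts, miRNA hosts and inducible and immune RNAs (Bvht among them) lie lower in HDCKO. The list of muscle RNAs as a whole lies higher (0.0169% to 0.0234% against 0.00297% to 0.00464%). The summed share of the list of nuclear and regulatory RNAs overlaps between the groups.

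Coding neighbours were compared because position was not used to choose the members. Of the 183 annotated members, 88 overlapped a coding gene on the opposite strand, 16 started within 1 kb of one in the opposite direction, 6 overlapped one on the same strand, and 73 had none closer. Both the member and its coding neighbour passed the test in 90 cases, in the same direction in 69 (76.7%). The agreement was uneven: 44 of 48 lower members had a lower neighbour, and 25 of 42 higher members had a higher one. Of the 166 neighbours tested, 33 were higher and 79 lower, so neighbours of any member were more often lower. The share in the same direction was 73.2% (30 of 41) for opposite-strand overlaps and 80.0% (32 of 40) for neighbours that did not overlap. The log2 changes correlated at r = 0.52 over the 166 pairs tested and at r = 0.68 over the 52 pairs whose exons overlap, where reads can be shared. The pairs share the same 6 libraries and are not independent.

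Some pairs beside muscle genes, picked after their values were seen, were both higher. A930016O22Rik, whose exons overlap those of the creatine kinase gene Ckm on chromosome 7, had 18.9, 24.6 and 12.2 FPKM in HDCKO and 0.116 to 0.391 in WT (4.71), while Ckm rose by 6.82. Gm15179 lies opposite Des, the gene of the intermediate filament desmin, without exon overlap, and had 24.2, 16.3 and 8.69 FPKM in HDCKO and 0.0399 to 0.279 in WT (4.67, with 4.45 for Des). 3300002P13Rik and Cacng6, a calcium channel subunit gene, rose by 4.05 and 5.48, and Gm52321 and Lrrc30 by 2.91 and 6.19. By contrast Myh3, the neighbour of the largest increase, 2310065F04Rik, was not called (0.81).

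Other pairs, again picked after their values were seen, were both lower. Gm41235 had 0.00870 to 0.0716 FPKM in HDCKO and 2.40, 12.2 and 1.10 in WT (-2.88), and its exons overlap those of Acod1, the macrophage gene of itaconate synthesis (-5.19). Gm53692 fell by 2.50 opposite the chemokine gene Ccl3 (-5.70), Gm32908 by 2.84 opposite the neutrophil receptor gene Csf3r (-5.56), and Gm38933 by 3.43 beside Ccl6 (-4.35). Zeb2os (-1.95) lies opposite Zeb2 (-2.24), and Gm32029 (-2.38) starts beside Tyrobp (-3.42). AW112010 (0.89, not called) lies nearest Ms4a8a, which was lower (-3.36), and Gm13822 fell by 3.02 where its neighbour Oasl1 was not called (-2.18).

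Some pairs diverged. 0610009L18Rik had 11.7, 8.54 and 5.97 FPKM in HDCKO and 0.174 to 0.697 in WT, a rise of 3.34, while Actg1, the cytoplasmic actin gene it overlaps on the opposite strand, fell by 1.94. Lppos rose by 1.73 and Lpp fell by 0.91, and Gm38560 rose by 2.96 where Txnrd1 fell by 1.20. Oip5os1 rose while Oip5, a centromere gene beside it, fell by 2.27. Inside Pitpnc1 (1.05) on chromosome 11, 2 members moved in opposite directions. Gm11716 (107226711 to 107235664) had 41.4, 32.6 and 14.7 FPKM in HDCKO and 5.09, 5.04 and 1.71 in WT (2.76, adjusted p = 0.00746). Gm11714 (107319055 to 107326515) had 0.0642, 0 and 0 FPKM in HDCKO and 2.70, 6.88 and 0.953 in WT (-2.64, adjusted p = 0.0108). Both are on the plus strand, opposite Pitpnc1, with no exon overlap.

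**Figure D5:**
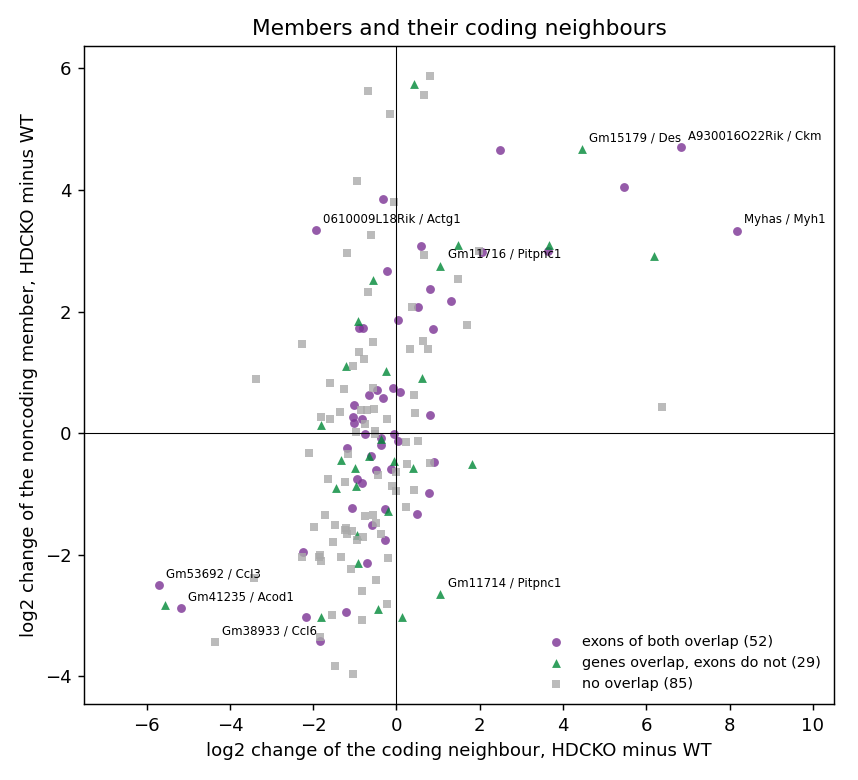
Log2 change of each noncoding member (vertical axis) against that of its coding neighbour (horizontal axis), both HDCKO minus WT, for 166 pairs; purple circles are pairs with overlapping exons, green triangles pairs that overlap outside exons and grey squares pairs that do not overlap. Pairs such as A930016O22Rik and Ckm (4.71 and 6.82) lie at the upper right, and Gm53692 and Ccl3 (-2.50 and -5.70) at the lower left.

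Most members had no role in the lists. Of 160 members outside every list, 62 were higher and 45 lower, with a median log2 change of 0.16 (17.8% and 42.6% of all genes, median -0.50). With median-of-ratios scaling 74 were higher and 38 lower, with a median of 0.64. A clone name was all that 141 of the 200 carried. Of 15 antisense names, 6 were higher and 4 lower. Peg13, an imprinted transcript inside Trappc9, had 9.32, 10.6 and 8.11 FPKM in HDCKO and 4.52 to 5.16 in WT (0.90, adjusted p = 0.00563). Lockd, downstream of the cell cycle inhibitor gene Cdkn1b, had 0.0958, 0.0558 and 2.06 FPKM in HDCKO and 2.99 to 4.35 in WT (-2.05, adjusted p = 0.0278). Among the steadiest was 1300002E11Rik, with 1.81 to 1.94 FPKM in HDCKO and 1.76 to 1.88 in WT (0.03, adjusted p = 0.865). Peg13, Lockd, 1300002E11Rik, the neighbour pairs and the hosts outside the 6 most abundant of their list were chosen after their values were seen.

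The edge of the ranking fell among like levels. The last members were Gm40863, D330041H03Rik and 2610203C22Rik, with means of 1.73, 1.73 and 1.72 FPKM, and the first rows left out were Gm41228, 2900093K20Rik and Gm15816, with 1.72, 1.70 and 1.69. Gm41228 had 0 to 0.229 FPKM in HDCKO and 2.76 to 4.19 in WT, and Gm15816 had 2.75 to 4.49 in HDCKO and 0 to 0.0744 in WT.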

How the data were processed

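Per the labels' protocols, total RNA was taken up in TRIzol, and the VAHTS Universal V6 kit served for library construction. The sources used here do not give the strand setting or how shared reads were counted. The submitters' processing notes name FastQC 0.11.9, HISAT2 2.1.0, HTSeq 0.11.2, STAR 2.7.11b, DESeq2 1.22.2 and GRCm39, and which aligner led to the table is not stated. The authors deposited FPKM values, 1 column per library, without read counts.

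From these, limma 3.58.1 (trend, R 4.3.3, statmod 1.5.0) was fitted to log2(FPKM + 0.5) of the 13288 genes averaging 0.5 FPKM or more, HDCKO against WT, no covariate, with Benjamini-Hochberg adjustment over all genes and a threshold of 0.05. Mice are the replicates, so p-values set the group difference against the spread between these 3 and 3 mice, moderated over all genes tested. The fit was tested on simulated data for this comparison (13287 genes). It called 22 of 64 genes changed by 1 on the log2 scale, 48 of 66 changed by 2 and 60 of 69 changed by 4. Of 13088 unchanged genes it called 3. Far fewer genes were changed there than were called in these data, and noise was drawn for each gene separately. These rates therefore need not hold for the real libraries. Members and lists were chosen with earlier results of these data known, and no list has a test of its own. Named members were the 12 most abundant, the 10 largest changes in each direction (called, no overlap, a mean of 1 FPKM or more where higher), the 6 most abundant of each list, and 3 on each side of the rank threshold. Positions came from GENCODE M39 (GRCm39) by gene symbol, using canonical transcripts for overlap. Alternatives were the pseudocount, the filter, 3 scalings, sample weights, a replicate block, the order of ranking and exclusion, and each library left out. Depth per library was estimated from low FPKM values and exon lengths, reading each value as 1 fragment and taking the most frequent result over genes. That result was shared by 51 to 83 genes of the 1334 to 1903 low genes of a library. A fragment was then worth 0.0266 to 0.0339 FPKM in a gene of 1 kb, and the estimate entered no test.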

Additional observations from a re-analysis of the deposited data

How the results depend on the processing

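Counts of members kept within 1.5 times under all alternatives run. The median log2 change of the members (-0.05) was 0.40 with median-of-ratios scaling, 0.27 after quantile normalization and 0.20 when rescaled without fibre and mitochondrial genes; with libraries left out in turn it ran from -0.14 to 0.037, and it was above 0 without HDCKO replicate 1 (0.037) or WT replicate 2 (0.03). The members' share of FPKM differed by 0.0729 percentage points in favour of HDCKO after that rescaling, against -0.0514 on the deposited values. Over all genes, 3593 were higher and 3355 lower with median-of-ratios scaling, and 3709 lower when rescaled. Leaving out a library gave 2502 to 7266 lower, with 2502 without HDCKO replicate 2, 3019, 3179 and 2813 without WT replicates 1, 2 and 3. The median of all genes was -0.014, -0.12 and -0.22 under these scalings and -0.054 with no filter, where many genes near 0 enter. Among the 50 named members, single changes that turned were Snhg8 (0.038) and Dleu2 (0.031) with median-of-ratios scaling, Carmn (0.23, 0.085 and 0.038 under the 3 scalings) and Gm26917 without HDCKO replicate 3 (-0.0044), which ran to 0.56 without WT replicate 3; the cause was not tested. Of the 139 called members, 1 turned under a scaling: Rab10os, from -0.48 to 0.03 with median-of-ratios. With the replicate block 64 members were higher and 69 lower. Deviations from the group means correlated at 0.122, 0.067 and 0.138 between same-numbered mice. HDCKO replicate 2 correlated best with WT replicate 1 (0.112). The labels do not state that the numbers pair mice, and such correlations cannot decide whether they do. Small structural RNA genes, listed for a share of FPKM, had 0 members, so no value was computed. The HDCKO levels of Mirt2 and the WT levels of Mir1a-1hg are limited by depth.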
